A study of Mus musculus with 9 samples.

Results

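The cytosolic ribosome is built from rRNA and a fixed set of proteins, those of the small 40S subunit, with symbols Rps, and those of the large 60S subunit, with symbols Rpl. Their genes were taken from a transcriptome of mouse group 2 innate lymphoid cells by symbol alone: a symbol had to begin with Rpl or Rps followed by a digit, or be Rplp0, Rplp1, Rplp2 or Rpsa, and S6 kinases (Rps6k) and loci named as pseudogenes (-ps) were left out. This gave 90 of the 20732 genes in the count table, and each of the 90 had enough counts to be tested. By textbook knowledge 77 are core proteins of the ribosome (46 of the 60S and 31 of the 40S subunit), 5 are paralogs that can stand in for a core protein or resemble one (Rps27l, Rpl36al, Rpl22l1, Rpl39l and Rps4l), and 6 are retrocopies, which are copies of a spliced mRNA inserted elsewhere in the genome. The other 2, Rpl7l1 and Rps19bp1, carry the name but are not ribosomal proteins. Rps4l was counted as a paralog by its symbol, but the annotation lists it as a transcribed processed pseudogene, as it does the retrocopy Rpl37rt.

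Group 2 innate lymphoid cells (ILC2s) are tissue lymphocytes without antigen receptors that secrete type 2 cytokines, and IL-33 activates them through the receptor ST2. C57BL6/J mice received PBS, or 200 ng of IL-33, on day 0 and day 1, and ILC2s were sorted from the pancreas on day 5 as live cells positive for CD45 and KLRG1 and negative for CD3, B220 and lineage markers. The sample titles give 4 libraries titled naive, labelled as PBS-treated and called PBS here, and 5 titled IL-33. The series' design text gives the numbers of mice the other way round, 5 for PBS and 4 for IL-33; the titles were followed, and this conflict bears on every comparison. No allele other than the strain is named. Nothing states that each library was a separate mouse, and the p-values given here therefore reflect the spread among libraries only.

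Each ribosome carries a single copy of nearly every one of these proteins, and cells make them in step. Their mRNAs are short and abundant, and most begin with a run of pyrimidines, the 5′ terminal oligopyrimidine or TOP motif, through which the kinase mTOR, acting on the repressor LARP1, controls their translation more than their amount. Lymphocytes enlarge the pool of ribosomes when they leave rest and grow.

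Total counts were 14216976 to 21020023 per library. Gata3, Il1rl1 (ST2) and Klrg1 were present in every library, and Cd3d and Cd3e were at most 4.04 and 9.32 CPM (counts scaled by library size), although Cd3g lay between 221 and 342 CPM. RNA of pancreatic acinar cells, which make digestive enzymes, differed between libraries. In PBS replicate 4 the 35 acinar genes made up 56.1% of counts, against 0.188% to 10.6% in the other PBS libraries and 0.530% to 17.0% with IL-33. A set of 6 erythroid genes took 0.0142% to 0.0343% with PBS and 0.0424% to 0.365% with IL-33, and IL-33 replicates 1, 2 and 3 were the highest. CPM values above and below are scaled by the trimmed mean of M-values (TMM), which lowered the effective size of PBS replicate 4 by a factor of 0.532 (0.990 to 1.17 for the other libraries).

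Many ribosomal protein genes were higher in ILC2s of IL-33-treated mice, mostly by less than 1 on the log2 scale, and a single pair, Rps27 and its copy Rps27rt, was lower. With edgeR's quasi-likelihood test over all genes, at an adjusted p below 0.05, 43 of the 90 rose, 2 fell and 45 did not pass the test. Over all 14405 genes tested, 13.7% were called higher and 11.6% lower. The median log2 change of the 90 genes was 0.38, against -0.05 for all genes, and 74 of the 90 lay above 0. In 38 of the 90 every IL-33 library lay above every PBS library, and in 2 every one lay below, compared with 15.3% and 10.8% of all genes.

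**Figure D1:**
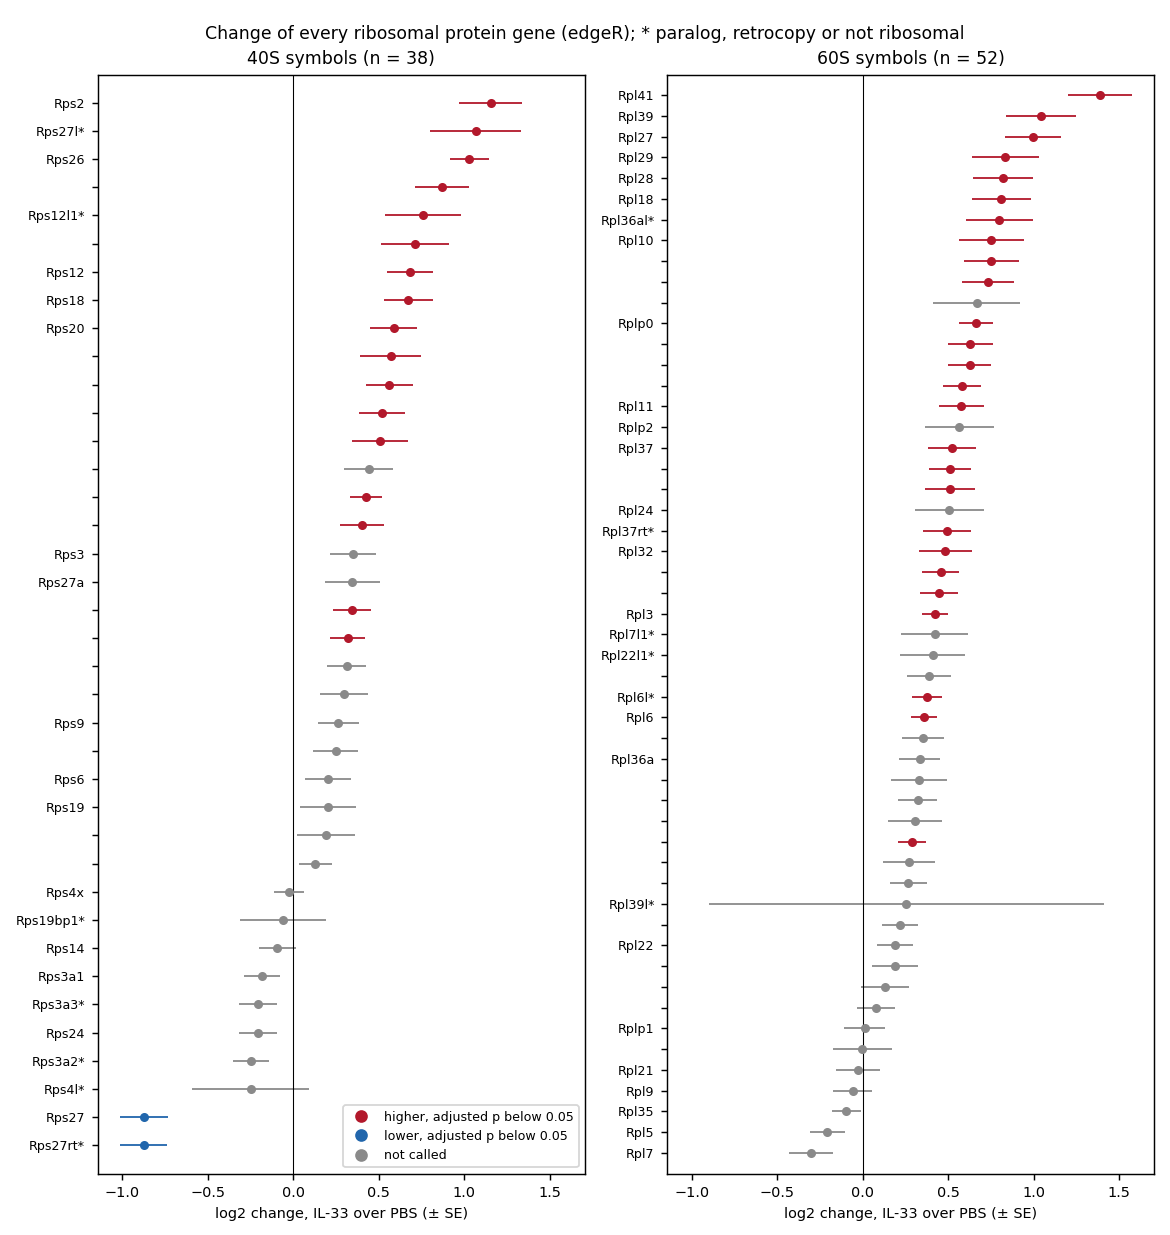
The log2 change, IL-33 over PBS, of each of the 90 genes is plotted with its SE from edgeR, 38 genes with 40S symbols on the left and 52 with 60S symbols on the right; red points rose, blue points fell and grey points were not called, names are given for genes described in the text, and an asterisk marks paralogs, retrocopies and the 2 genes that are not ribosomal. Rpl41 and Rps2 lie at the top and Rps27 and Rps27rt stand apart at the bottom.

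Both subunits were represented. Of the 46 core 60S genes 23 rose and 0 fell (median log2 change 0.43), and of the 31 core 40S genes 15 rose and 1, Rps27, fell (median 0.35). Short genes as a whole were higher with IL-33, and 69 of the 90 lie in the shortest group when genes are cut into 5 by transcript length, where the median log2 change was 0.38 and 22.5% of all genes were called higher (-0.52 and 5.37% in the longest). Those 69 genes had a median log2 change of 0.41, and 34 of them were called higher. With the trend over length and GC content removed from each library, 8 of the 90 were higher, 14 were lower and the median was -0.028 (9.87% and 10.9% of all genes).

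The balance of short and long genes was a property of whole libraries. Leaving the 90 genes out, the median log2 CPM of the shortest group minus that of the longest was -1.98 in PBS replicate 1, -2.10 in replicate 2, -1.73 in replicate 3 and -1.70 in replicate 4. It was -1.09, -0.95, -1.15, -0.84 and -1.12 in IL-33 replicates 1 to 5. All IL-33 libraries lay above all PBS libraries, and within PBS the same pair, replicates 3 and 4, was the higher one as for the ribosomal protein genes: both of these libraries exceeded both others in 37 of the 43 genes that rose, and in 36.7% of all genes called higher (23.3% of all genes tested). IL-33 replicate 3, the lowest of its group in this balance, was also the lowest IL-33 library for 34 of those 43 genes, and for 48.1% of all genes called higher (22.1% of all genes tested). Its part in the rise of single genes was not tested beyond the fit with the trend removed.

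Summed over the 90 genes, ribosomal protein transcripts made up on average a larger part of the IL-33 libraries, though single libraries overlapped. They took 4.14%, 4.30%, 4.89% and 2.31% of all counts in PBS replicates 1 to 4, a mean of 3.91% ± 1.12 (SD, n = 4). They took 5.01%, 5.61%, 4.77%, 5.70% and 5.78% in IL-33 replicates 1 to 5, a mean of 5.38% ± 0.452 (SD, n = 5). PBS replicate 3 lay above IL-33 replicate 3, and PBS replicate 4, the library rich in acinar counts, was the lowest. Leaving acinar and endocrine genes out of the total brought PBS replicate 4 to 5.27%, and the means to 4.83% ± 0.631 and 5.92% ± 0.399. After TMM scaling the summed level was 40785 ± 4751 CPM (SD, n = 4) with PBS and 50695 ± 2739 CPM (SD, n = 5) with IL-33, and every IL-33 library lay above every PBS library. These are bulk libraries of sorted cells, so a different mixture of cells and a different amount of RNA per cell cannot be told apart. The summed 40S counts were 0.741 ± 0.0199 (SD, n = 4) of the 60S counts with PBS and, with overlap between the groups, 0.711 ± 0.0194 (SD, n = 5) with IL-33.

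**Figure D2:**
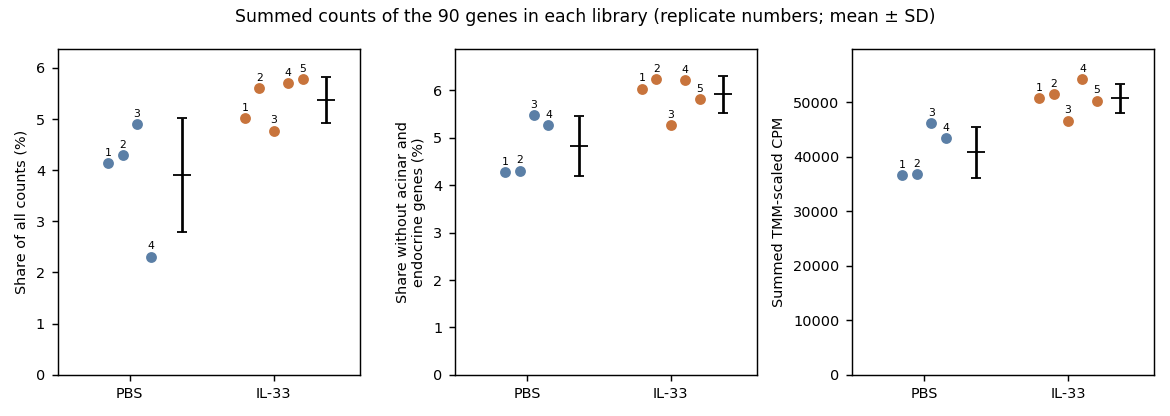
Summed counts of the 90 genes in each library, as a share of all counts (left), as a share of counts without acinar and endocrine genes (middle) and as summed TMM-scaled CPM (right); points are libraries with their replicate numbers and bars are the mean ± SD of 4 PBS and 5 IL-33 libraries. PBS replicate 4 is the lowest library at 2.31% on the left and lies within the other PBS libraries in the other panels.

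Of the genes called, 6 rose in each of the 22 alternative fits in which calls were counted at an adjusted p below 0.05: Rpl41, Rps2, Rpl39, Rps26, Rpl27 and Rplp0. Rpl41 encodes the smallest protein of the ribosome, which lies between the subunits. Its level was 242, 245, 370 and 419 CPM in PBS replicates 1 to 4 and 790, 885, 735, 978 and 783 CPM in IL-33 replicates 1 to 5. The lowest IL-33 library was well above the highest PBS library. The log2 change was 1.39 ± 0.19 SE (adjusted p = 8.8e-04 in edgeR), the largest of the 90 genes, and 0.85 with the length and GC trend removed. Rpl41 lies on chromosome 10, 128548114 to 128549305, minus strand (GRCm38, GENCODE annotation, as for all genes here).

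Rps2, a 40S protein at the site where mRNA enters the ribosome, was at 383, 390, 573 and 534 CPM with PBS and at 1055, 1214, 730, 1104 and 1130 CPM with IL-33. IL-33 replicate 3 was the lowest of its group and still above every PBS library. The log2 change was 1.15 ± 0.18 SE (adjusted p = 0.0019 in edgeR), and 0.67 with the trend removed. Rps26, which contacts mRNA where it leaves the 40S subunit, had the smallest adjusted p of the set. Its levels were 324, 349, 417 and 445 CPM with PBS and 791, 781, 723, 837 and 785 CPM with IL-33, a log2 change of 1.03 ± 0.11 SE (adjusted p = 3.1e-04 in edgeR) and of 0.65 with the trend removed. The 5 IL-33 values were tightly grouped, and none came near the PBS range.

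Rpl39 lines the tunnel through which the nascent chain leaves the 60S subunit. It was at 42.2, 41.5, 65.1 and 65.2 CPM with PBS and at 117, 113, 81.0, 136 and 104 CPM with IL-33 (log2 change 1.04 ± 0.20 SE, edgeR adjusted p = 0.0054). Rpl27, a 60S protein whose human gene is mutated in some families with Diamond-Blackfan anaemia, an inherited failure of red cell production, was at 135, 139, 216 and 185 CPM with PBS and at 312, 359, 285, 385 and 340 CPM with IL-33 (log2 change 0.99 ± 0.16 SE, edgeR adjusted p = 0.0024). The groups did not overlap for either gene. With the trend removed the log2 change was 0.66 for Rpl39 and 0.48 for Rpl27. Rplp0, the base of the stalk that recruits the translation GTPases, was far more abundant, at 1450, 1481, 1738 and 1711 CPM with PBS and 2274, 2695, 2576, 2474 and 2606 CPM with IL-33. Its log2 change was 0.66 ± 0.10 SE (adjusted p = 0.0014 in edgeR), and 0.31 with the trend removed. The groups were again apart. The other stalk genes were not called, Rplp1 with a log2 change of 0.01 and Rplp2 with one of 0.57 (adjusted p = 0.956 and 0.0643, edgeR).

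**Figure D3:**
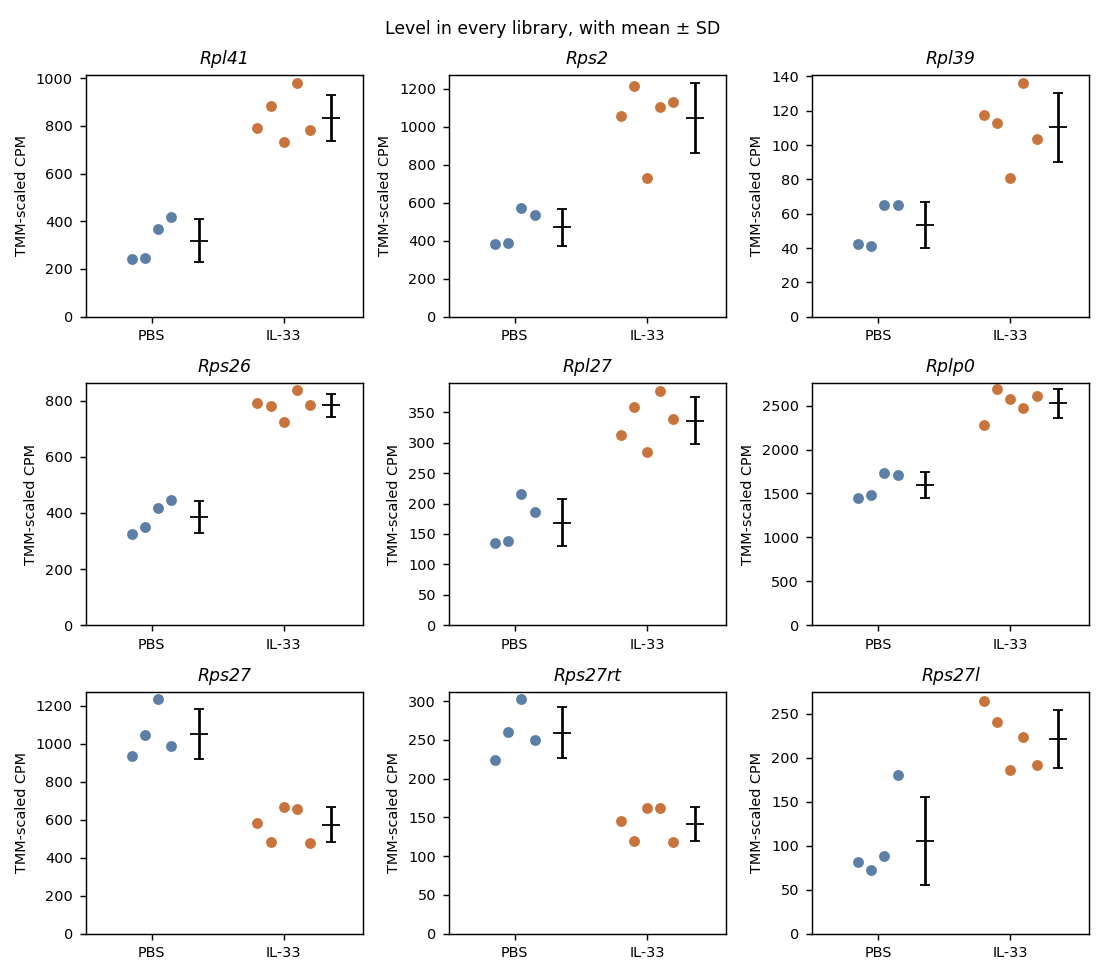
TMM-scaled CPM of the 6 genes that rose in every alternative fit and of Rps27, its retrocopy Rps27rt and its paralog Rps27l, in 4 PBS and 5 IL-33 libraries, with the mean ± SD beside the points and every axis starting at 0. The IL-33 libraries lie above all PBS libraries in 7 panels and below them for Rps27 and Rps27rt; PBS replicate 4 stands apart at 180 CPM of Rps27l.

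The 60S genes Rpl29, Rpl28 and Rpl18 were also among the larger rises. Rpl29 rose by 0.84 on the log2 scale (adjusted p = 0.013, edgeR). Rpl28 and Rpl18 rose by 0.82 and 0.81 (adjusted p = 0.0081 and 0.0086, edgeR). In these 3 genes the IL-33 libraries all lay above the PBS libraries, and IL-33 replicate 3 was the lowest of its group. With the trend removed none of these 3 was called (log2 changes 0.26, 0.19 and 0.22). With the counts of -ps loci added to the gene they are named for, the change of Rpl18 was 0.50.

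Other members are given by role. Rpl10, the protein that completes the 60S subunit in the cytoplasm, rose by 0.75, but IL-33 replicate 3 at 419 CPM lay within the PBS range of 301 to 452 CPM, and the call was lost without PBS replicate 1 or 2 (adjusted p = 0.0515 and 0.0556, edgeR). Rpl11, which with Rpl5 and 5S rRNA can bind the p53 ligase Mdm2, rose by 0.58 (adjusted p = 0.011, edgeR), while Rpl5 had a log2 change of -0.21 (adjusted p = 0.169, edgeR). Rpl3, at the peptidyl transferase centre, rose from 795 ± 29.6 CPM (SD, n = 4) with PBS to 1067 ± 24.4 CPM (SD, n = 5) with IL-33, a log2 change of 0.42 that was 0.09 with the trend removed. Rps20 rose by 0.59 and remained called with the trend removed (log2 change 0.81), but only transcripts of 3706 nt are principal in its annotation and its length there may not be that of the mRNA counted. Rps6, the substrate of S6 kinase, Rps3, at the mRNA entry, Rps19, the gene most often mutated in Diamond-Blackfan anaemia in humans, and Rps27a, a fusion of ubiquitin and a 40S protein, were not called. Their log2 changes were 0.21, 0.35, 0.20 and 0.35 (edgeR adjusted p = 0.295, 0.0891, 0.401 and 0.144).

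Rps27, a zinc-finger protein of the 40S subunit, went the other way. It was at 935, 1044, 1235 and 988 CPM in PBS replicates 1 to 4 and at 583, 483, 668, 658 and 475 CPM in IL-33 replicates 1 to 5. Every IL-33 library was below every PBS library. The log2 change was -0.87 ± 0.14 SE (adjusted p = 0.0020 in edgeR), and -1.30 with the length and GC trend removed. The call was lost with library size alone in place of TMM (adjusted p = 0.0778, edgeR) and held in the 21 other fits. Rps27 lies on chromosome 3, 90212522 to 90213651, minus strand.

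Rps27rt is a retrocopy on chromosome 9, 114982366 to 114982739, minus strand. It fell in step with Rps27, from 259 ± 32.8 CPM (SD, n = 4) with PBS to 141 ± 21.8 CPM (SD, n = 5) with IL-33 (log2 change -0.87 ± 0.14 SE, edgeR adjusted p = 0.0019). Its count was between 0.240 and 0.252 of that of Rps27 in all 9 libraries. The reason to treat both as one signal is in the sequence: the coding sequences are identical over all 255 nt, and 98.5% of the 75-base windows of the Rps27 transcript and 90.3% of those of Rps27rt occur in another gene, so reads of either cannot be told apart here. Their sum was 1310 ± 163 CPM (SD, n = 4) with PBS and 715 ± 114 CPM (SD, n = 5) with IL-33, and the groups did not overlap. With -ps loci added too, the log2 change was -0.86 ± 0.14 SE (adjusted p = 0.0021 in edgeR).

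Rps27l encodes a near twin of the Rps27 protein, and its human counterpart is a transcriptional target of p53. It lies on chromosome 9, 66946086 to 66949516, plus strand. Unlike the retrocopy its coding sequence can be told from that of Rps27, from which it differs at 61 of 255 positions (76.1% identity), and 12% of its transcript windows occur in another gene. Both coding sequences are shown to make that separation visible, from GENCODE transcripts on GRCm38, with the bases in which Rps27l differs from Rps27 in capitals.
Rps27: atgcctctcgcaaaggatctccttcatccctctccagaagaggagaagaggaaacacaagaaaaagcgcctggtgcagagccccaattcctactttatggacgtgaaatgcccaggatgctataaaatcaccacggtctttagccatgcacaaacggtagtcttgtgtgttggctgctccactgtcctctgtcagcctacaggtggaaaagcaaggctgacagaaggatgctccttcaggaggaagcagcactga
Rps27l: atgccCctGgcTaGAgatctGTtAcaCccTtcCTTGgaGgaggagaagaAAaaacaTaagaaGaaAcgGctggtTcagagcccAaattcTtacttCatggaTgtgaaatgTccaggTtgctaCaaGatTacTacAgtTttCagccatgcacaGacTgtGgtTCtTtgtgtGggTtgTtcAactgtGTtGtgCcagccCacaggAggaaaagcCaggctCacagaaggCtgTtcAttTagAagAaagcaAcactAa

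Rps27l rose where Rps27 fell. It was at 81.6, 72.9, 88.2 and 180 CPM with PBS and at 265, 241, 187, 223 and 192 CPM with IL-33. PBS replicate 4 lay far above the other PBS libraries and just below the lowest IL-33 library, so the groups did not overlap. The log2 change was 1.07 ± 0.27 SE (adjusted p = 0.017 in edgeR), and the call did not hold without PBS replicate 1 (adjusted p = 0.0509), with the trend removed (log2 change 0.63, adjusted p = 0.155) or without the 3 IL-33 libraries highest in erythroid counts (log2 change 0.98, adjusted p = 0.161).

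A ratio of 2 genes inside a library does not depend on the scaling. The ratio of Rps27l to Rps27 counts lay between 0.0699 and 0.183 with PBS and between 0.279 and 0.499 with IL-33. The mean log2 ratio moved from -3.40 ± 0.651 (SD, n = 4) to -1.37 ± 0.335 (SD, n = 5), a difference of 2.03 (exact permutation test over 126 splits, two-sided, p = 0.0159, the smallest that 4 against 5 libraries can give, and adjusted p = 0.0476 over the 6 pairs tested). Without PBS replicate 4 the difference was 2.35. Leaving out any 1 library raised the adjusted p to between 0.0571 and 0.107 for this pair and for Rpl7l1 over Rpl7, since fewer libraries allow fewer splits.

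The other paralogs moved less against their partners. Rpl7l1, a nucleolar protein that resembles Rpl7 and is not part of the ribosome, gained on Rpl7 by 0.71 on the log2 scale (exact permutation p = 0.0159, adjusted p = 0.0476), and no library of one group overlapped the other. Neither gene was called by itself: Rpl7 was at 1295, 1177, 1064 and 856 CPM with PBS and 843, 824, 997, 924 and 863 CPM with IL-33, with a log2 change of -0.30 (adjusted p = 0.113, edgeR), and Rpl7l1 had one of 0.42 (adjusted p = 0.145, edgeR). For Rpl7, PBS replicate 4 fell within the IL-33 range and the other PBS libraries above it. Rpl36al, a paralog of Rpl36a, rose by 0.80 (adjusted p = 0.016, edgeR), but its ratio to Rpl36a, 0.49 higher on the log2 scale, missed the threshold (exact permutation p = 0.0317, adjusted p = 0.0635), and PBS replicate 4 overlapped the IL-33 libraries.

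Rpl22l1, which can replace Rpl22, the 60S protein needed for development of alpha-beta T cells in mice, differed from it by 0.20 (adjusted p = 0.452). Rps4l, annotated as a processed pseudogene, differed from Rps4x by -0.33 (adjusted p = 0.457). Rpl39l, known from testis in mice, was at 0 CPM in PBS replicate 1 and at most 4.26 CPM, in IL-33 replicate 5, and its ratio to Rpl39 differed by -0.40 (adjusted p = 0.841 for this exact permutation test). Its direction turned without PBS replicate 2 or 4, so no direction is given. Rps19bp1, a protein that binds Rps19, was at 21.8 ± 6.90 CPM (SD, n = 4) and 20.9 ± 3.68 CPM (SD, n = 5).

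**Figure D4:**
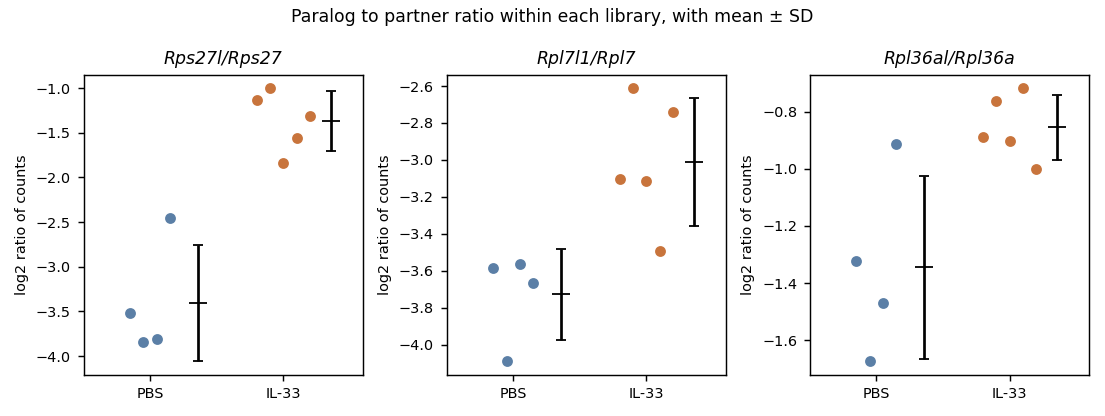
The log2 ratio of counts of a paralog to its partner in each of 4 PBS and 5 IL-33 libraries, with the mean ± SD beside the points, for Rps27l over Rps27, Rpl7l1 over Rpl7 and Rpl36al over Rpl36a. The groups are apart in the first 2 panels and overlap in the third, where PBS replicate 4 lies among the IL-33 libraries.

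Near-identical copies touched most of the set. More than 30% of the 75-base windows occurred in another gene for 67 of the 90 transcripts, and for 4, among them Rps3 and Rpl39l, none did. The 23 genes with at most 30% shared had 10 rises and 0 falls (median log2 change 0.32), and the 67 others 33 rises and 2 falls (median 0.40). The 225 -ps loci left out by symbol carried 15.1% to 16.2% as many counts as the 90 genes, and 46 of the 198 that were tested were higher and 1 lower. For all these counts, the shares of all genes called were 13.7% higher and 11.6% lower. The other retrocopies were summed with their parent gene and its -ps loci. The sums of Rpl6 with Rpl6l, Rpl37 with Rpl37rt and Rps12 with Rps12l1 rose by 0.37, 0.52 and 0.68 on the log2 scale (edgeR adjusted p = 0.0077, 0.022 and 0.0056), and Rps3a1 with Rps3a2 and Rps3a3 had a change of -0.18 (adjusted p = 0.243, edgeR). Exons of 20 of the 90 genes overlap a gene on the opposite strand, whose reads could not be told apart if the counting ignored strand.

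Per kb of transcript, mean levels over all 9 libraries ranged from 2.18 CPM per kb for Rpl39l to 3081 for Rpl32. Rps14 at 2929, Rps27 at 2277, Rps9 at 1981 and Rps18 at 1789 CPM per kb followed Rpl32. Rps27 was thus among the most abundant members although its level fell. Of these 5, Rpl32 rose by 0.48 (edgeR adjusted p = 0.0467, lost when any library except PBS replicate 3 or 4 was left out) and Rps18 by 0.67 (adjusted p = 0.0077, edgeR), and Rps14 and Rps9 were not called. The other low members were Rps4l at 11.7, Rpl24 at 22.6, Rps19bp1 at 25.4 and Rps12l1 at 25.5 CPM per kb. Rpl24 is a core 60S protein, and 80.9% of its windows occur in another gene. Across the 90 genes the percent of shared windows did not follow the level per kb (Spearman rho = -0.017). Why Rpl24 was low was not tested.

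Scaled on the summed counts of the 90 genes, which asks how each gene moved within the pool, 19 rose and 14 fell (7.80% and 18.6% of all genes, whose median moved to -0.38). All 19 were among the 43 genes called with TMM. Rpl41 rose by 1.09, Rps26 by 0.72 and Rpl27 by 0.69 relative to the pool (edgeR adjusted p = 7.6e-04, 5.1e-04 and 0.0021), and Rps27 and Rps27rt fell by 1.19 each (adjusted p = 7.4e-04 and 6.7e-04, edgeR). Rps24, a 40S protein known from Diamond-Blackfan anaemia in humans, fell by 0.52 relative to the pool (adjusted p = 0.0021, edgeR), and with TMM was at 356 ± 43.6 CPM (SD, n = 4) and 309 ± 29.0 CPM (SD, n = 5) (adjusted p = 0.214, edgeR). The other falls within the pool were Rpl5, Rpl7, Rpl9, Rpl21, Rpl35, Rplp1, Rps4x, Rps14 and the Rps3a genes. Across the 90 genes the log2 change followed neither transcript length (Pearson r = -0.12, Spearman rho = -0.20) nor GC content (0.20 and 0.19) closely. The genes share libraries and these values are a description. As 69 of the 90 lie in the shortest of the 5 length groups, the length values cannot speak for the trend over all genes. The median of all genes was -0.05 with TMM and 0.08 with library size alone. Relative to the median of all genes, that of the 90 was higher by 0.43 with TMM, 0.45 with library size alone and 0.44 with the pool as scale. These settings differ only in the scale of each library, which shifts every gene by nearly the same amount, so their gaps had to be close. With the length and GC trend removed the gap was 0.08.

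**Figure D5:**
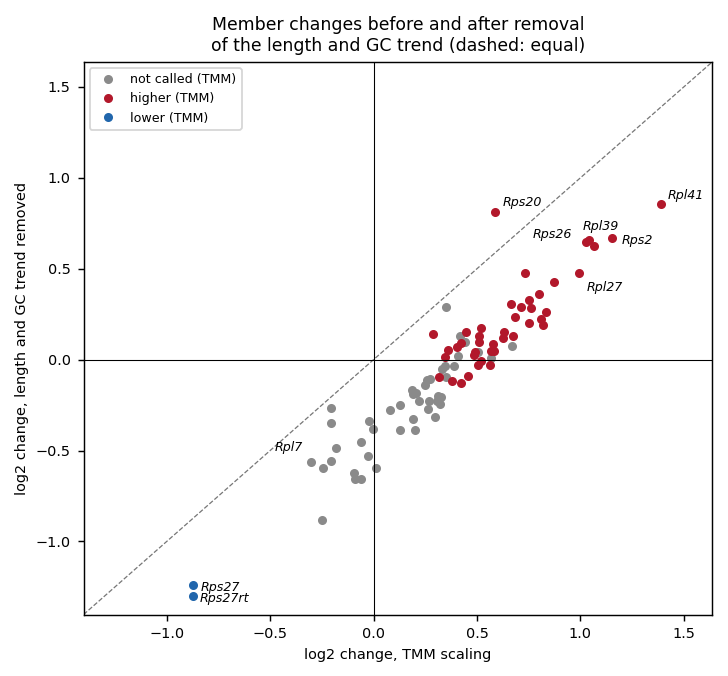
The log2 change of each of the 90 genes with TMM scaling (horizontal) against that with the trend with transcript length and GC content removed from each library (vertical); colours give the call with TMM scaling and the dashed line marks equal values. Every point except Rps20 lies below the line, Rpl41, Rps2, Rpl39, Rps26 and Rpl27 stay above 0 on both axes, and Rps27 and Rps27rt lie lowest on both.

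Start sites of members that moved apart are shown to set their pyrimidine runs side by side. RefSeq promoter windows (GRCm38.p6) were found for 65 of the 90 genes. The run searched was a C within 10 bases of the annotated start, on the strand of the gene, followed by at least 4 bases that are each C or T. It was present in 58.5% of the 65 and in 34.4% of the 27025 genes with a window, in 58.1% of the 31 that rose and in 58.8% of the 34 others. The annotated start may not be the one these cells use, and no match says only that the run is not in that stretch. The windows begin 10 bases before the annotated start, and the longest run is in capitals.
Rps26, chr10:128626487-128626516, minus strand: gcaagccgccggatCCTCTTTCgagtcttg
Rpl28, chr7:4792955-4792984, plus strand: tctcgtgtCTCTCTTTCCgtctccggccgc
Rpl39, chrX:37085203-37085232, minus strand: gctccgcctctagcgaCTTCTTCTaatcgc
Rpl41, chr10:128549149-128549178, minus strand: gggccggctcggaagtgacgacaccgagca
Rps27, chr3:90213629-90213658, minus strand: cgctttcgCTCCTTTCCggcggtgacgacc
Rps27rt, chr9:114982720-114982749, minus strand: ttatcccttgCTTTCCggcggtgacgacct

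Rps26, Rpl28 and Rpl39, which rose, and Rps27, which fell, all carry a run, and Rpl41, with the largest rise, has none in this window. Among other genes that rose, whose windows are not shown, Rps2 and Rpl18 carry a run and Rpl27 and Rplp0 have none. Rps27l has windows with and without a run. The windows of Rps27 and Rps27rt share 19 bases in a row (ctttccggcggtgacgacc), which in Rps27rt begin at its annotated first base.

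Other genes of the ribosome and of translation gave a mixed picture. Counts here and in the next paragraph stand beside the 13.7% of all genes called higher and 11.6% called lower. Mitochondrial ribosomal proteins, which serve the separate ribosome of that organelle, had 32 of 80 tested genes higher and 1 lower (median log2 change 0.48). With the trend removed 19 were still higher and 5 lower (median 0.24), compared with 9.87% and 10.9% of all genes. Whether mitochondrial ribosomal proteins differ from the cytosolic set was not tested. Fau, a 40S protein made as a fusion with a ubiquitin-like protein, and Rack1, a scaffold on the 40S subunit, lie outside the symbol rule. They had log2 changes of 0.31 and 0.08 and were not called. Of 10 elongation factors 2 rose, Eef1b2 by 0.56 and Eif5a by 0.45, although Eif5a had a change of -0.070 with the trend removed, and Eef2 at 0.27 was not called. Of 52 initiation factor genes 12 rose and 4 fell (median 0.22).

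Other mRNAs with a TOP motif included both directions. Of 19, 6 rose and 1 fell (median log2 change 0.29): Vim, the intermediate filament vimentin, rose from 360 ± 32.9 CPM (SD, n = 4) with PBS to 1085 ± 129 CPM (SD, n = 5) with IL-33 (log2 change 1.59, adjusted p = 5.1e-05, edgeR), and Nap1l1, a histone chaperone, by 1.11 (adjusted p = 3.1e-04, edgeR). The gene that fell, Tpt1, encoding the tumour protein TCTP and named here after its value was seen, was at 825 ± 67.4 CPM (SD, n = 4) and 543 ± 77.7 CPM (SD, n = 5) (log2 change -0.60, adjusted p = 0.0059, edgeR). Of 9 measured snoRNA host genes 1 rose, Zfas1 by 1.05 (adjusted p = 0.019, edgeR), and 1 fell, Snhg15 from 196 ± 20.3 CPM (SD, n = 4) with PBS to 53.3 ± 10.5 CPM (SD, n = 5) with IL-33 (adjusted p = 9.0e-05, edgeR). Snhg12 was not called. The call of Zfas1 was lost in several fits, among them without PBS replicate 2 (adjusted p = 0.0538, edgeR) and with the pool as scale (adjusted p = 0.0934, edgeR).

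Genes that make and watch over ribosomes are given beside the 13.7% of all genes called higher and 11.6% called lower. Of 47 genes of ribosome biogenesis 5 rose and 3 fell (median log2 change -0.19), with Polr1d, a subunit of RNA polymerases I and III, up by 1.26, Nhp2, of the box H/ACA particle, up by 0.91 and Wdr43, a small-subunit processing factor, down by 0.64 (edgeR adjusted p = 0.0045, 0.0097 and 0.0031). Wdr43 was not called with library size alone. Of 18 S6 kinases and regulators of TOP mRNAs 0 rose and 1 fell, Rptor, the defining subunit of mTOR complex 1, with a log2 change of -1.05 (adjusted p = 0.0414, edgeR), a call that held without IL-33 replicate 1 and was lost without any other library; Rictor and Rps6ka1 were not called. Of 12 chaperones and importers of ribosomal proteins Nap1l1 alone rose, and Ipo5 and Ipo7 were not called. Of 13 ribosome quality control genes Eif4e2 rose by 0.83 and 4 fell, among them Usp16 by 0.68 and Gigyf2 by 0.97 (log2; edgeR adjusted p values = 0.0014, 0.0074 and 0.014; the 2 falls were not called with library size alone). Of 15 genes of the p53 response 2 rose and 3 fell. The 3 that fell were Cdkn1a, the cell cycle inhibitor p21, Mdm4, an inhibitor of p53, and Plk2, a kinase, with log2 changes of -0.86, -1.52 and -2.16 (edgeR adjusted p = 7.4e-04, 0.0048 and 0.0057), and Cdkn1a was not called with library size alone (adjusted p = 0.0789).

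Markers of other cells moved with the groups or with single libraries. Beside the erythroid and acinar shares given above, 2 mast cell and basophil genes took 0.00174% to 0.00486% of counts with PBS and 0.0102% to 0.0365% with IL-33, without overlap. A set of 5 B cell genes took 0.0223% to 0.0612% with PBS and 0.0188% to 0.0417% with IL-33, with overlap. The part of the mast cell, basophil and B cell genes in the results was not tested. With the acinar share as a covariate, a choice made after seeing the data, 42 of the 90 rose and 2 fell. Without IL-33 replicates 1, 2 and 3, the libraries highest in erythroid counts, 12 rose and 2 fell (4.75% and 4.31% of all genes), in a fit of 4 against 2 libraries, and the median was 0.45. The fall of Rps27 and Rps27rt was called in both fits.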

How the data were processed

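RNA of sorted pancreatic ILC2s from 9 libraries (4 PBS, 5 IL-33, grouped by sample title) was made with a low-input kit from 5 to 15 ng and sequenced as paired reads of 150 nt, per the labels. The submitters' processing notes name STAR 2.7.7a, Salmon 1.6.0, Trimmomatic 0.39, FastQC 0.11.9, Picard, DESeq2 and the build GRCm38.p6, without roles. How the counting treated strand is not given in the sources used here. Raw gene counts that the authors deposited were tested as they stood, and a table of normalized values was not used. Genes were kept with filterByExpr (minimum count 10), scaled by TMM and tested with edgeR 4.0.16 (quasi-likelihood, robust, two-sided, Benjamini-Hochberg over all genes tested, threshold 0.05) in R 4.3.3, with limma 3.58.1 (voom) and DESeq2 1.42.0 as alternatives. The main edgeR fit alone was run on simulated data, which held no trend over transcript length, and the outcome is not given here. Intervals are SDs over libraries or fit SEs. Total counts of 14216976 to 21020023 make counting error small for all but the lowest genes, such as Rpl39l. No pair of libraries agreed within sampling noise.

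Symbols, transcripts and lengths came from GENCODE on GRCm38, by gene ID (20571 of 20732 matched), and start windows from RefSeq, by symbol. Shared sequence was the percent of 75-base windows of the principal transcript found in other genes. The trend over transcript length and GC content was removed by a spline offset per library. Ratios of paralogs used log2 of raw counts with 0.5 added to both genes, and exact permutation tests over 126 splits with SciPy 1.17.1.

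Members, gene lists and alternatives were chosen with earlier results of these data known. The text names genes from the 10 largest rises and all falls, the 5 highest and lowest levels per kb, paralogs with their partners, and the 3 smallest p-values of each list. Rplp0, Rplp1, Rplp2, Rpl5, Rpl11, Rps3, Rps6, Rps19, Rps20, Rps27a and Tpt1 lie outside that rule and were chosen after their values were seen, as were 3 alternatives: the acinar covariate, the sum of copies and the removal of erythroid-rich libraries. Rpl3l and Rpl10l were not analysed here, and a few genes that the rule selects are not reported here.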

Additional observations from a re-analysis of the deposited data

Results flagged for a closer look

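In 66 groups of 4 or 5 libraries, 6 held a library far from the others by Dixon's test of the gap over the range at 95%; chance alone marks about 1 in 20 groups. PBS replicate 4 had 180.4 CPM of Rps27l, against 72.87 to 88.16 in the other PBS libraries. IL-33 replicate 3 was low for Rpl29, at 148.4 CPM against 199.6 to 215.3, and for Rpl18, at 275.2 CPM against 377.4 to 417.7. IL-33 replicate 5 had 4.259 CPM of Rpl39l, against 0.4156 to 0.8287 in its group, and 1109 CPM of Rpl3, against 1046 to 1062. IL-33 replicate 4 had 274.9 CPM of Rpl36a, against 232.8 to 240.3. What set these libraries apart was not tested.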

How the results depend on the processing

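Shares of all genes called are in brackets. The count of 43 higher genes (13.7%) became 20 with library size alone (9.25%) and 19 scaled on ribosomal protein counts (7.8%). It became 8 with the length and GC trend removed (9.87%). Without the 3 erythroid-rich IL-33 libraries, a choice made after seeing the data, it was 12 (4.75%). At a threshold of 0.01 it was 19, and the share of all genes is not given here. With 1 library left out it was 29 to 46 (9.94% to 13.2%). In the other fits apart from the replicate block it was 36 to 55 (8.18% to 16.4%). The count of 2 lower genes (11.6%) became 0 with library size alone (4.47%), where Rps27 had an adjusted p = 0.0778 in edgeR. It became 14 scaled on ribosomal protein counts (18.6%), 14 with the trend removed (10.9%) and 4 with DESeq2's Wald test (16.1%). With copies summed, where Rps27rt is part of Rps27, it was 1 (11.5%). Leaving 1 library out gave 2 to 3 (8.0% to 11.6%). The median log2 change of 0.38 became 0.53 with library size alone, 0.061 scaled on ribosomal protein counts and -0.028 with the trend removed, and was 0.33 to 0.45 with 1 library left out.

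Same-numbered libraries did not deviate together (correlations -0.030, -0.056, -0.030 and 0.067). The labels do not say whether the numbers pair libraries, and these values cannot decide it. A fit with replicate block called 8 higher, all among the 43, and 2 lower (5.49% and 4.62% of all genes). With 1 library left out, the ratio of Rps27l to Rps27 differed by 1.89 to 2.35, Rpl7l1 to Rpl7 by 0.594 to 0.835, both past the threshold only with all 9 libraries, and Rpl39l to Rpl39 by -1.76 to 0.240, turning without PBS replicate 2 (0.240) or 4 (0.0707). The summed share stayed 0.931 to 1.79 points higher with IL-33. Of 1285 values of 56 genes under the naming rule in these fits, 113 lost a call, 29 gained one and 1, Eif5a (-0.070 with the trend removed), reversed. Apart from what the fits change by construction, the cause was not tested. Depth limits only the lowest genes.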
